A study of Homo sapiens with 14 samples.

Results

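The miR-221 and miR-222 family was followed through its 4 mature forms, the 3p and 5p arms of miR-221 and miR-222, in PANC-1 cells exposed to grape proanthocyanidins (PA) or to the vehicle DMSO. The 4 forms were taken by name from a table of 2848 small RNA entries, 2346 of which carry a human miRNA name, and all 4 passed the filter on low counts that left 810 entries. PANC-1 is an established human line from a pancreatic ductal carcinoma, and proanthocyanidins are oligomers and polymers of flavan-3-ols. Every culture was PANC-1 grown as a monolayer in medium with fetal bovine serum. The 7 groups were DMSO at 0, 3, 12 and 24 h and PA at 20 µg/ml for 3, 12 and 24 h, with 2 libraries each, called A and B. Whether the A and B libraries of a group are separate cultures is not stated, so the p-values measure the spread between these libraries, which may be technical. The series compared PA with DMSO over time to see which miRNAs the exposure changed.

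A miRNA gene is transcribed as part of a long primary transcript, cut by Drosha to a hairpin and by Dicer to a short duplex, of which 1 strand, the guide, is loaded into Argonaute and the other is mostly degraded. The guide finds target mRNAs chiefly through its seed, bases 2 to 8. For miR-221 and miR-222 the 3p arm is the usual guide. Their best known targets are the cyclin-dependent kinase inhibitors CDKN1B (p27) and CDKN1C (p57), the receptor KIT, TIMP3 and the death-promoting BBC3 (PUMA). Both are commonly high in carcinomas, pancreatic cancer among them, and the locus is known to respond to AP-1 and NF-kB.

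The mature sequences are shown because the shared seed is what joins the 3p arms into a family. In capitals are the seed bases.
hsa-miR-221-3p: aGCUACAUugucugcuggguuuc
hsa-miR-222-3p: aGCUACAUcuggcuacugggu
hsa-miR-222-5p: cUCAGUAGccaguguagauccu
The 3p arms are identical over their first 8 bases and differ beyond them, at an edit distance of 6 over lengths of 23 and 21 bases. Among 2370 mature names in the RefSeq sequence table (build GRCh38.p14), which held 3 of the 4 members, no other name carried the seed of miR-221-3p and miR-222-3p. No other name carried the seed of miR-222-5p.

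The hairpins are shown with the tabulated mature arms in capitals, to place each arm on its precursor.
MIR221: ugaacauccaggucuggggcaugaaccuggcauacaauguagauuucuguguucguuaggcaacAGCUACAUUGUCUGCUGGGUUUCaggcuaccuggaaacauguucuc
MIR222: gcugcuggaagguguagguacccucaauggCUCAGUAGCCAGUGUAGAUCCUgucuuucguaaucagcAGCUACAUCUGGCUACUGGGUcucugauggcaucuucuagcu
MIR221 lies on the minus strand of chromosome X at 45746157 to 45746266 and MIR222 at 45747015 to 45747124, with 748 bases between them. miR-221-3p takes positions 65 to 87 of its hairpin, and in MIR222 the 5p arm takes positions 31 to 52 and the 3p arm positions 69 to 89. In GENCODE 29 (GRCh38) both hairpins fall in the intron of the 2-exon long non-coding transcript MIR222HG-201, on the same strand. MIR221 is 56 bases and MIR222 914 bases from the nearer exon. The hairpins are known to be transcribed together.

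Total counts ran from 1032391 (DMSO 12 h B) to 3111014 (PA 3 h B), with a median of 2076388. CPM is counts per 1000000 of the library total scaled by edgeR's TMM factor. Reads of mature miRNAs are whole molecules of similar length, so CPM needs no length correction, but adapter ligation is known to favour some sequences over others, which bears on levels compared between miRNAs. Markers of acinar and islet cells (miR-216a-5p, miR-216b-5p, miR-217 and miR-375, 4 entries) summed to 2.17 to 10.2 CPM, with miR-375 read in all 14 libraries (1.64 to 8.35 CPM), miR-216b-5p in 12, miR-217 in 5 and miR-216a-5p in 1. Those of haematopoietic cells (4 entries) summed to 1.64 to 6.37 CPM. The endothelial markers, both arms of miR-126, summed to 806 to 1439 CPM. The 5 fibroblast and stellate markers summed to 13.1 to 305.7 CPM. Of 3 red blood cell markers, nearly all of the 296.5 to 591.1 CPM came from miR-486-5p, and miR-451a had a read in 4 of the 14 libraries. The liver and muscle markers summed to at most 4.34 CPM. These lists hold no marker that defines PANC-1 itself.

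The level of the family rested on miR-221-3p. It took 0.944% to 2.74% of a library's counts, ranked between the 10th and the 20th of all entries in each library, and made up 82.3% to 92.8% of the counts of the 4 members. Its mean over the 14 libraries was 12957 CPM (rank 15 of 810), against 1351 CPM for miR-222-3p (rank 67), 662 CPM for miR-221-5p (rank 96) and 8.59 CPM for miR-222-5p (rank 543). miR-125b-5p (13086 CPM) and let-7i-5p (11981 CPM) stood next to miR-221-3p in abundance, and miR-151a-3p (1356 CPM) and miR-361-5p (1341 CPM) next to miR-222-3p. The arms that share the seed summed to between 10245 CPM (PA 12 h B) and 27176 CPM (DMSO 12 h B), of which miR-222-3p supplied between 5.51% (DMSO 12 h B) and 13.7% (DMSO 0 h A).

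**Figure D1:**
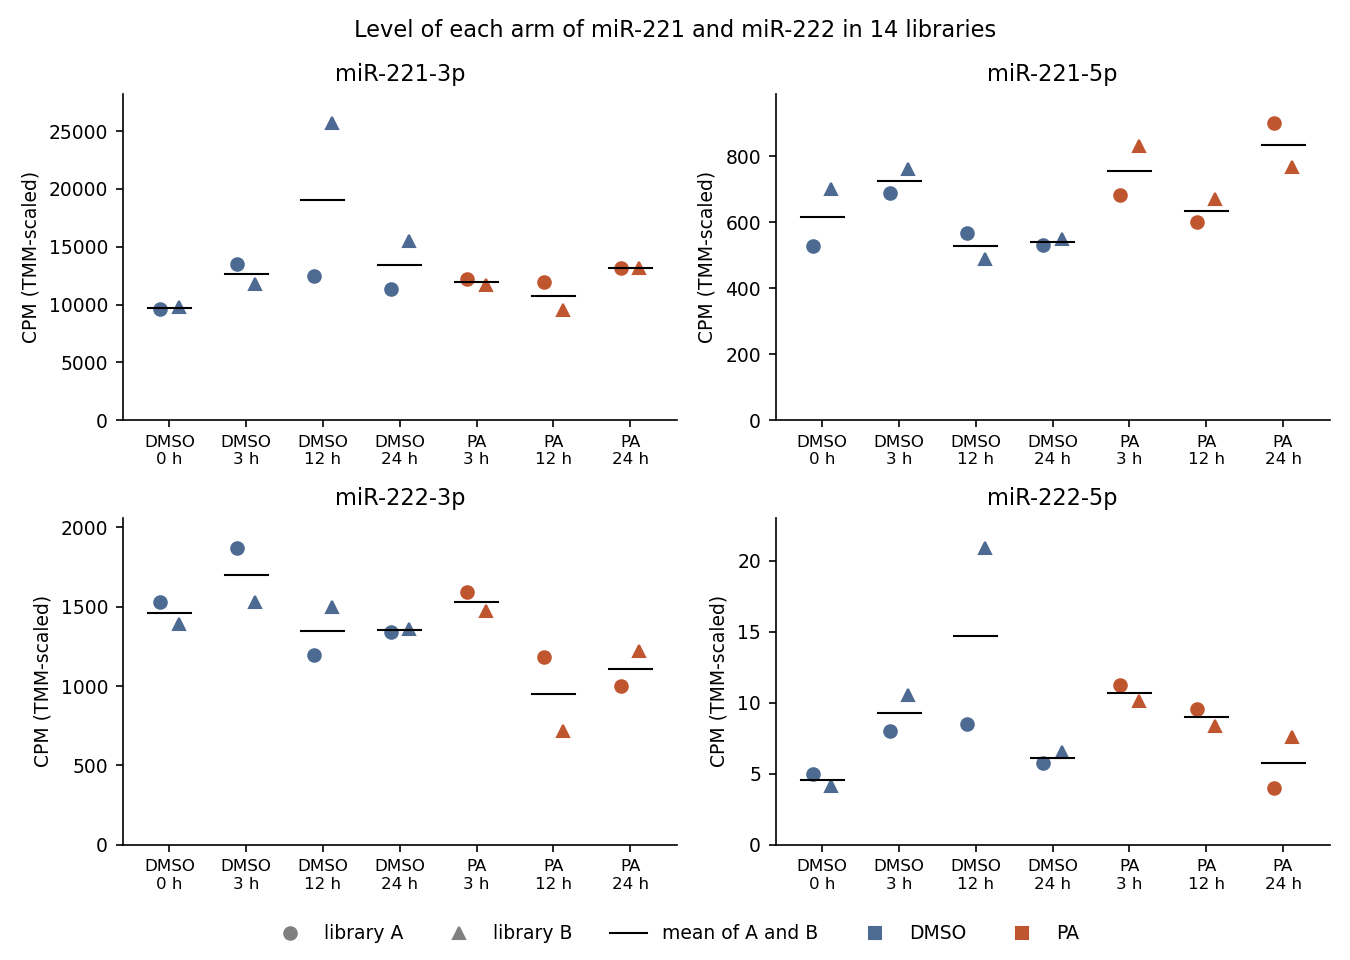
CPM (TMM-scaled, linear axes from 0) of the 4 arms in each library, with circles for A, triangles for B, a line at the mean of the pair, DMSO in blue and PA in orange. DMSO 12 h B stands far above the other libraries for miR-221-3p (25679 CPM) and miR-222-5p (20.9 CPM), and PA 24 h holds the highest miR-221-5p mean (834 CPM).

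miR-221-3p, the guide arm of miR-221, measured 9587 and 9819.9 CPM in DMSO 0 h (A and B), 13544 and 11797 in DMSO 3 h, 12468 and 25679 in DMSO 12 h, and 11333 and 15522 in DMSO 24 h. In PA 3 h it measured 12189 and 11656 CPM, in PA 12 h 11931 and 9530.1, and in PA 24 h 13197 and 13153. In 13 libraries it thus lay between 9530.1 and 15522 CPM, and DMSO 12 h B alone lay above that range. By mean the groups ran DMSO 12 h (19074 ± 9342 CPM, SD, n = 2), DMSO 24 h (13427 ± 2962), PA 24 h (13175 ± 30.6), DMSO 3 h (12670.3 ± 1236), PA 3 h (11923 ± 377), PA 12 h (10730.3 ± 1697) and DMSO 0 h (9703 ± 165). All 6 gaps between neighbours in this order were smaller than the larger SD of the pair.

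At 12 h miR-221-3p was lower with PA than with DMSO, the log2 fold change being -0.83 ± 0.25 (SE), with an adjusted p of 0.0468 by edgeR. It was the only member of the 4 that passed at this time, where 4.81% of the 810 entries passed as lower and 11.1% in either direction. PA 12 h A (11931 CPM) lay close to DMSO 12 h A (12468 CPM). Most of the distance between the means came from DMSO 12 h B. Without that library the log2 fold change was -0.22 (adjusted p = 0.555), and without DMSO 12 h A it was -1.26 (adjusted p = 0.000448). Such fits assume that the lone library left in a group varies like those of the other groups. The change passed in 1 of the 14 fits that each left out 1 library, and the adjusted p was 0.291 without PA 12 h B.

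The DMSO 12 h pair was the most unequal pair for this miRNA, with B 2.06 times A, against a higher library 1.003 to 1.37 times the lower in the other 6 groups. On the log2 scale A and B of DMSO 12 h differed by 1.04 for miR-221-3p. Of all 810 entries 181 differed at least as much in this pair, and of the 82 entries with a mean of at least 1000 CPM, 8 did, itself included. The median entry differed by 0.50 between these libraries and by 0.23 to 0.41 in the other pairs. DMSO 12 h B was the shallowest library. Its 28238 counts of miR-221-3p give 27352 in 1000000 with an exact (Clopper-Pearson) 95% interval of 27038 to 27668. Such intervals leave out the spread between libraries, because each rests on the counts of 1 library. PCR copies of 1 molecule are counted separately, so they may be too narrow even for counting error. As a sign of RNA quality, 7 listed entries taken as overlapping tRNA or rRNA were summed. Of these miR-4454 alone ran from 2248 to 10171 CPM over the 14 libraries. The sum was 5891 CPM in DMSO 12 h A and 3427 in DMSO 12 h B, the lowest of the 14 libraries. It was 6661 and 11262 CPM in PA 12 h A and B. In the DMSO 12 h libraries the endothelial sum was lowest (806 and 948 CPM), the fibroblast and stellate sum was 13.1 and 15.5 CPM, and the red blood cell sum reached 591.1 CPM, its highest. The part of depth or of these RNAs in the result was not tested.

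Within DMSO alone, miR-221-3p at 12 h was above the mean of 0, 3 and 24 h by 0.69 ± 0.20 on the log2 scale (edgeR adjusted p = 0.0265), a comparison in which 16.5% of entries passed, 8.89% as higher. DMSO 12 h was already known from these data to stand apart when the comparison was chosen. Its p-value is therefore not that of an independent test. Without DMSO 12 h B the difference was 0.08 (adjusted p = 0.818). The test over the 4 DMSO times did not pass for miR-221-3p (F = 5.20, adjusted p = 0.0702; 13.1% of entries passed), and without DMSO 12 h A it did (adjusted p = 0.000746). Set against the same 3 DMSO times, miR-221-3p in PA 12 h stood at -0.14 ± 0.21 (adjusted p = 0.798; 0.617% of entries passed, 0.37% as higher). Chosen with the same knowledge of DMSO 12 h, this comparison mixes PA with time in culture and shares its controls with the preceding one.

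At 3 h and 24 h miR-221-3p did not pass, with log2 fold changes of -0.09 ± 0.25 (edgeR adjusted p = 1; 0.247% of entries passed) and -0.03 ± 0.25 (adjusted p = 0.962; 6.67% of entries passed). The libraries of PA and DMSO overlapped at 3 h, and at 24 h both PA libraries fell between the DMSO libraries. The PA effect on miR-221-3p was not shown to differ between the times (F = 3.17, adjusted p = 0.278; 5.93% of entries passed). That test passed without DMSO 12 h A (adjusted p = 0.00656) and gave 0.847 without DMSO 12 h B.

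**Figure D2:**
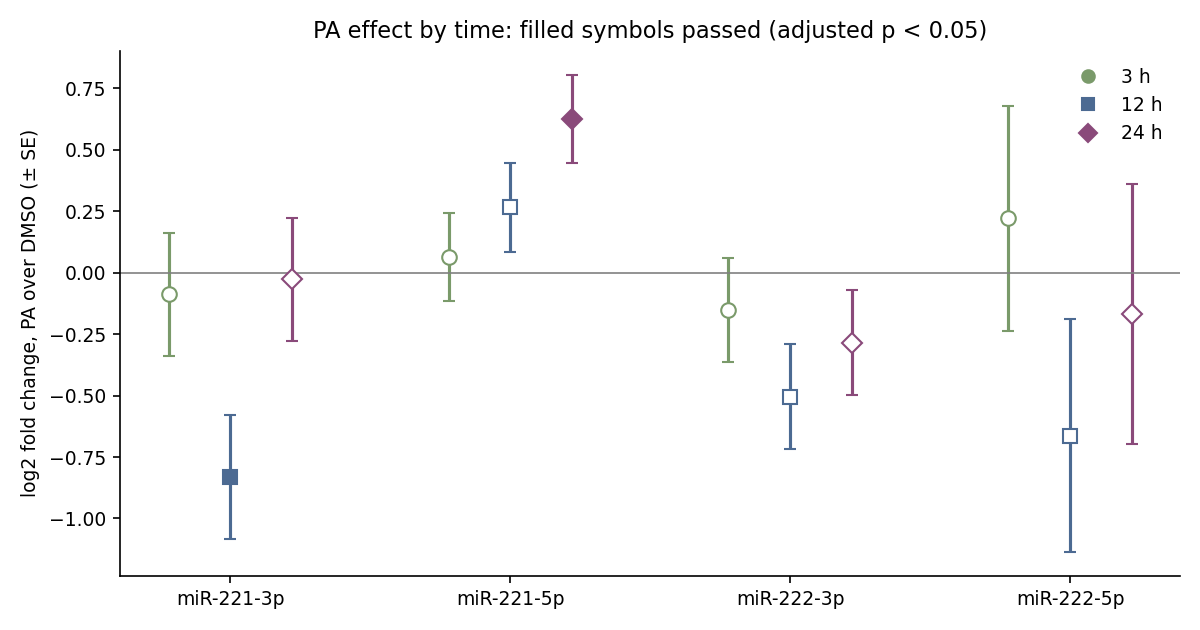
Log2 fold change of PA over DMSO with the SE of the edgeR fit for each arm at 3 h (circles), 12 h (squares) and 24 h (diamonds), filled where the adjusted p was under 0.05. The filled symbols are miR-221-3p at 12 h (-0.83) and miR-221-5p at 24 h (0.63).

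miR-221-5p, the passenger arm of the same hairpin, was at 532 and 549 CPM in DMSO 24 h (A and B) and at 900.5 and 767 CPM in PA 24 h. At 24 h it was higher with PA, by 0.63 ± 0.18 on the log2 scale (SE), with an adjusted p of 0.0486 by edgeR. It was the only member of the 4 that passed at this time, where 4.32% of entries passed as higher. PA 24 h A was the highest library of the 14. In fits that left out 1 library the value ran from 0.41 without PA 24 h A (adjusted p = 0.258) to 0.75 without PA 24 h B (0.06). It passed in 2 of these 14 fits, without DMSO 12 h A (0.0265) and without DMSO 12 h B (0.0269). With library totals in place of TMM it was 0.44 and did not pass (adjusted p = 0.122). Per 1000000 raw counts, with no scaling factor, miR-221-5p stood at 564 and 568 in DMSO 24 h and at 798 and 737 in PA 24 h. The 7 listed entries taken as overlapping tRNA or rRNA summed to 8592 and 6930 CPM in DMSO 24 h (A and B). In PA 24 h they summed to 8839 and 10864 CPM, and their part in the result was not tested.

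In the other groups miR-221-5p measured 528 and 702 CPM in DMSO 0 h, 687 and 761 in DMSO 3 h, 568 and 488 in DMSO 12 h, 682 and 832 in PA 3 h, and 601 and 669.9 in PA 12 h. The DMSO 12 h libraries held the lowest value of this arm, in B, the library in which the opposite arm was highest. Its log2 fold changes with PA were 0.06 ± 0.18 at 3 h and 0.27 ± 0.18 at 12 h (adjusted p = 1 and 0.382). The difference at 24 h was not shown to exceed those at the other times (F = 2.52, adjusted p = 0.334). In the order of means, from PA 24 h (834 ± 94.5 CPM, SD, n = 2) to DMSO 12 h (528 ± 56.5), 5 of 6 gaps between neighbours were within the larger SD of the pair, the exception being DMSO 3 h (724 CPM) over PA 12 h (635 CPM).

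**Figure D3:**
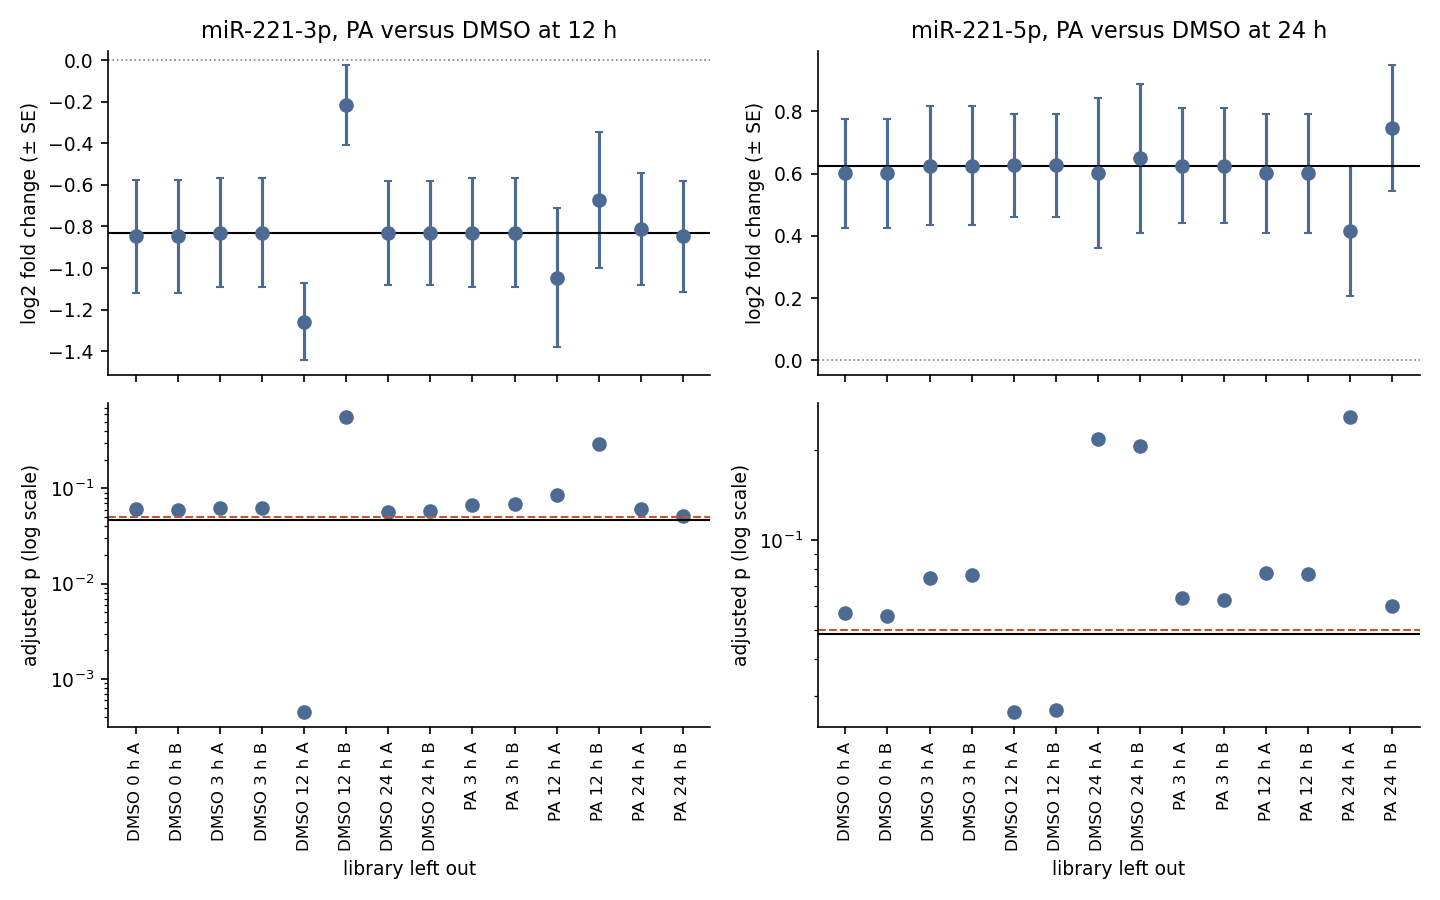
Log2 fold change with SE (top) and adjusted p on a log axis (bottom) of miR-221-3p at 12 h (left) and miR-221-5p at 24 h (right), with the library named on the horizontal axis left out. The black line is the fit of all 14 libraries (adjusted p = 0.0468 and 0.0486) and the dashed line is 0.05; points fall below it in 1 fit on the left and 2 on the right.

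The guide arm of miR-222, miR-222-3p, had its lowest levels with PA. It measured 1528 and 1392 CPM in DMSO 0 h (A and B), 1873 and 1532 in DMSO 3 h, 1198 and 1497 in DMSO 12 h, and 1341 and 1361 in DMSO 24 h. In PA 3 h it measured 1593 and 1474 CPM, in PA 12 h 1185 and 715, and in PA 24 h 999 and 1221. The 3 lowest of the 14 libraries were PA 12 h B, PA 24 h A and PA 12 h A, the last only just below DMSO 12 h A. PA and DMSO overlapped at 3 h and did not at 12 h and 24 h, which 2 libraries against 2 can show without any effect. The share of all entries without overlap was not counted. The PA 12 h libraries differed by 1.66 times, a log2 difference that 154 of the 810 entries, and 4 of the 82 with a mean of at least 1000 CPM, matched or passed in this pair. The 7 listed entries taken as overlapping tRNA or rRNA had their highest sum in PA 12 h B (11262 CPM), where miR-222-3p was lowest. Their next highest sum was in PA 24 h B (10864 CPM), and the part of these entries in the result was not tested.

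None of these differences in miR-222-3p passed. The log2 fold changes were -0.15 ± 0.21 at 3 h (edgeR adjusted p = 1), -0.50 ± 0.21 at 12 h (adjusted p = 0.144) and -0.28 ± 0.21 at 24 h (adjusted p = 0.501). Without PA 12 h A the value at 12 h was -0.95 and passed (adjusted p = 0.0323), and without PA 12 h B it was -0.17 (adjusted p = 0.76). Against DMSO at 0, 3 and 24 h, PA 12 h stood at -0.66 ± 0.18 (adjusted p = 0.103), at -0.30 without PA 12 h B (adjusted p = 0.828), and at -1.08 without PA 12 h A, which passed (adjusted p = 0.0433). DMSO 12 h itself was not shown to differ from those times for miR-222-3p (-0.15 ± 0.18, adjusted p = 0.624). From 3 h to 24 h within PA the value was -0.47 ± 0.21 (adjusted p = 0.251; 3.95% of entries passed, 2.72% as higher and 1.23% as lower). In the order of means 4 of 6 gaps were within the larger SD of the pair, the exceptions being DMSO 0 h (1460.2 CPM) over DMSO 24 h (1351 CPM) and DMSO 12 h (1347 CPM) over PA 24 h (1109.97 CPM).

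miR-222-5p, the passenger arm of miR-222, was scarce, at 5 to 30 counts a library. Its counts were 8 and 5 in DMSO 0 h (A and B), 21 and 18 in DMSO 3 h, 15 and 23 in DMSO 12 h, and 14 and 15 in DMSO 24 h. They were 27 and 30 in PA 3 h, 19 and 21 in PA 12 h, and 10 and 9 in PA 24 h. Scaled, DMSO 12 h B was highest at 20.9 CPM and PA 24 h A lowest at 4.01 CPM. The 23 counts of DMSO 12 h B give 22.3 in 1000000 with an exact 95% interval of 14.1 to 33.4, and the 5 counts of DMSO 0 h B give 4.42 in 1000000 with 1.43 to 10.3. Its log2 fold changes with PA were 0.22 ± 0.46 at 3 h, -0.66 ± 0.47 at 12 h and -0.17 ± 0.53 at 24 h, and none passed (edgeR adjusted p = 1, 0.403 and 0.88). A log2 change as large as that of miR-221-3p at 12 h (-0.83) lies within 2 SE of 0 at each time for this arm, so it could have been missed. Whether low counts or spread between libraries set the SE was not tested. DMSO 12 h stood above the other DMSO times by 1.15 ± 0.40 (adjusted p = 0.0589), by 0.42 without DMSO 12 h B (adjusted p = 0.643), and by 1.71 without DMSO 12 h A, which passed (adjusted p = 0.0124). It also passed without PA 24 h A (1.20, adjusted p = 0.0453).

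Averaged over 3, 12 and 24 h, the PA effect was -0.32 ± 0.19 for miR-221-3p, 0.32 ± 0.12 for miR-221-5p, -0.31 ± 0.14 for miR-222-3p and -0.20 ± 0.30 for miR-222-5p (log2 scale). No member passed, the adjusted p values running from 0.267 to 0.841. In this test edgeR called 0 of 808 entries (0%), DESeq2 6 and limma-voom 2, and 118 entries had an unadjusted p under 0.05 by edgeR, among them miR-221-5p (0.0207) and miR-222-3p (0.0426).

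Each cut hairpin gives both arms, and the ratio of the arms within a library does not depend on scaling between libraries. Per count of miR-221-5p there were 18.1 and 13.99 counts of miR-221-3p in DMSO 0 h (A and B), 19.7 and 15.5 in DMSO 3 h, 21.9 and 52.6 in DMSO 12 h, and 21.3 and 28.3 in DMSO 24 h. The ratio was 17.9 and 14.01 in PA 3 h, 19.9 and 14.2 in PA 12 h, and 14.7 and 17.2 in PA 24 h. All 6 PA libraries thus lay between 14.01 and 19.9 and the DMSO libraries of 0 and 3 h between 13.99 and 19.7, while the 4 DMSO libraries of 12 and 24 h lay above 19.9.

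The log2 of this ratio (0.5 added to each count) was lower with PA by 0.14 at 3 h, 1.01 at 12 h and 0.63 at 24 h. Its mean difference over the times, -0.60, had p = 0.0278 in an exact two-sided permutation test within times over 216 arrangements, the smallest p they allow being 0.00926. Adjusted over the 4 ratios examined it did not pass (adjusted p = 0.111). The mean difference was -0.39 without DMSO 12 h B and also -0.39 without the 12 h libraries. The libraries of 3 and 24 h alone allow too few arrangements for a p under 0.05, so that setting could not pass. With these numbers of libraries a single time cannot reach 0.05, so no time was tested alone.

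miR-221-3p exceeded miR-222-3p by a factor that was smallest in DMSO 0 h, at 6.27 and 7.05 (A and B), and stood at 7.23 and 7.70 in DMSO 3 h, 10.4 and 17.2 in DMSO 12 h, and 8.45 and 11.4 in DMSO 24 h. It was 7.65 and 7.91 in PA 3 h, 10.1 and 13.3 in PA 12 h, and 13.2 and 10.8 in PA 24 h. The libraries of 0 and 3 h lay below those of 12 and 24 h with either agent. Between PA and DMSO the mean log2 difference was 0.05 (exact permutation p = 0.843, adjusted p = 0.843). In miR-222 the 3p arm outnumbered the 5p arm by 71.6 to 338.8 counts to 1, with a mean log2 difference of -0.16 (exact permutation p = 0.519). The 5p arm of miR-221 outnumbered that of miR-222 by 23.3 to 224.6 to 1, with a difference of 0.48 (exact permutation p = 0.241). Their adjusted p values were 0.691 and 0.481.

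**Figure D4:**
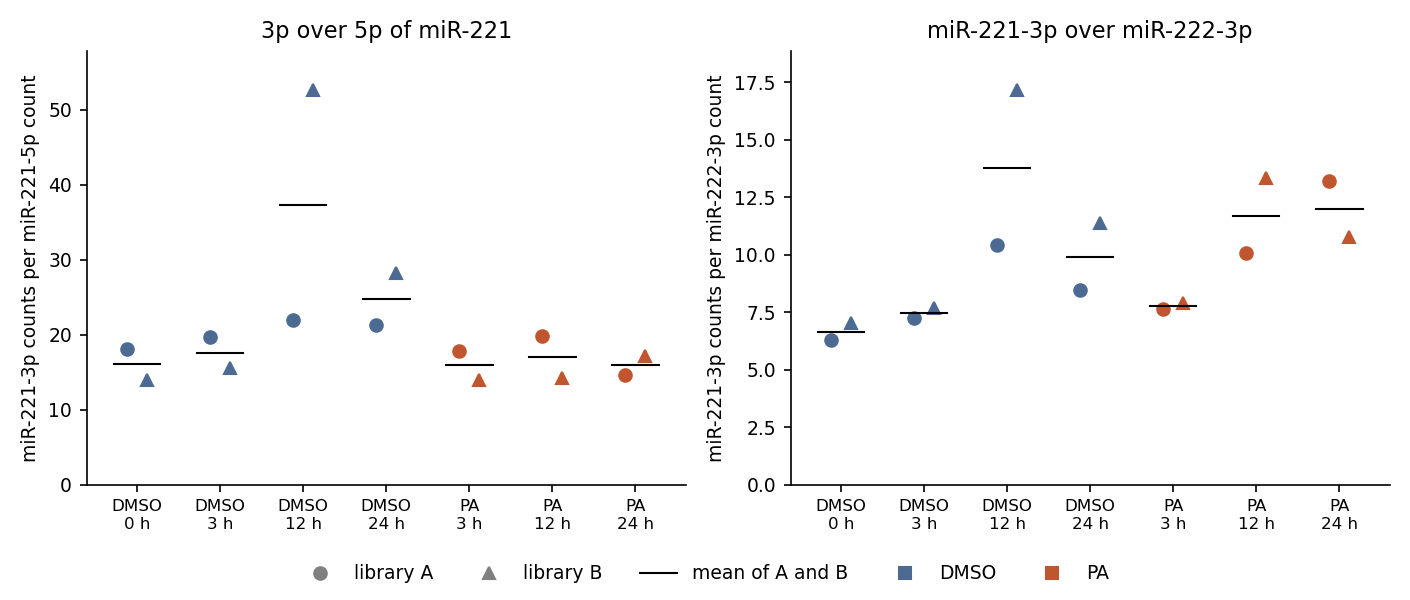
Counts of miR-221-3p per count of miR-221-5p (left) and per count of miR-222-3p (right) in each library, with circles for A, triangles for B, lines at the mean of the pair, DMSO in blue and PA in orange, axes from 0. On the left the 6 PA libraries lie between 14.01 and 19.9 and DMSO 12 h B at 52.6; on the right the libraries of 0 and 3 h lie between 6.27 and 7.91.

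Correlations between the members ranged from -0.31 to 0.63. Over the 14 libraries, Pearson's r of log2 CPM was 0.27 between miR-221-3p and miR-222-3p, -0.31 between the arms of miR-221 and 0.21 between the arms of miR-222. These and the following values are descriptions over libraries that share their groups. The r of 0.63 between miR-221-3p and miR-222-5p was 0.16 without the DMSO 12 h libraries.

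Of the 809 other entries the 3 most like miR-221-3p were miR-378a-3p (r = 0.92, Spearman's rho = 0.75), miR-125a-5p (r = 0.92, rho = 0.83) and miR-370-3p (r = 0.91, rho = 0.76), and the least like was miR-101-3p (r = -0.92, rho = -0.75). miR-125a-5p is a relative of the lin-4 miRNA, miR-370-3p belongs to the imprinted DLK1-DIO3 region, and miR-101-3p represses EZH2. DMSO 12 h B was the highest library for the first 3, at 1317, 9683 and 1033 CPM, and the lowest for miR-101-3p, at 303 CPM. Over the 12 libraries without DMSO 12 h the values of r were 0.75, 0.82, 0.82 and -0.81. Their ranks were then 15, 7, 8 and 808 of 809.

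**Figure D5:**
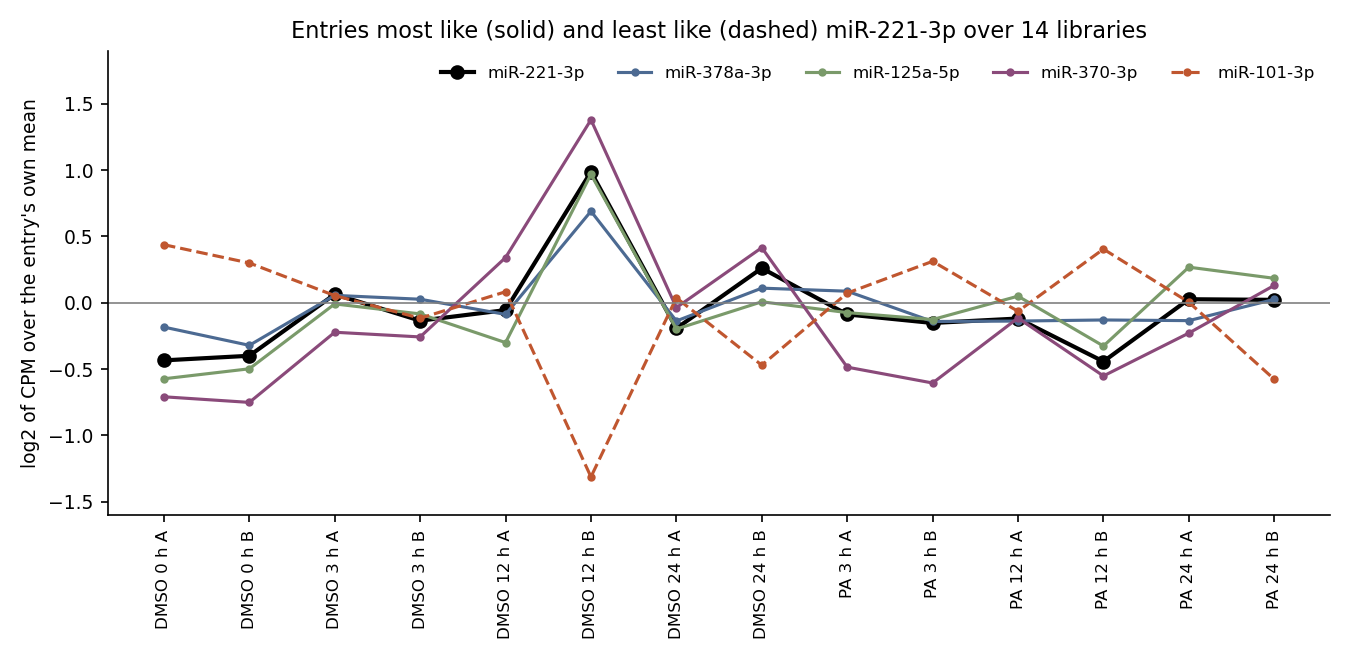
Log2 of CPM over the entry's own mean across the 14 libraries, for miR-221-3p (black), the 3 entries with the highest r (solid) and the entry with the lowest r (dashed); lines only guide the eye. The widest departures of all 5 are in DMSO 12 h B, upward for the first 4 and downward for miR-101-3p.

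The entries most like miR-222-3p were miR-16-2-3p (r = 0.84, rho = 0.83), let-7d-5p (r = 0.78, rho = 0.79) and miR-193a-5p (r = 0.78, rho = 0.80), and the least like was miR-148a-5p (r = -0.86, rho = -0.85). miR-16-2-3p is the passenger arm of a miR-16 gene, and let-7d-5p belongs to the growth-suppressive let-7 family. Without the DMSO 12 h libraries r was 0.90, 0.77, 0.79 and -0.87, at ranks 1, 18, 10 and 805 of 809. PA 12 h B, where miR-222-3p was lowest, was also the lowest library for miR-16-2-3p (21.9 CPM) and miR-193a-5p (36.2 CPM), and the highest for miR-148a-5p (32.7 CPM). In the comparison of PA and DMSO at 12 h, the abundance neighbour let-7i-5p fell by 0.51 on the log2 scale (edgeR adjusted p = 0.0373), with DMSO 12 h above the other DMSO times by 0.55 (adjusted p = 0.00367). The other 3 abundance neighbours did not pass in PA versus DMSO at any time, and miR-361-5p was higher in DMSO 12 h than at the other DMSO times (0.75, adjusted p = 0.00175).

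CDKN1B and CDKN1A brake the cell cycle by inhibiting cyclin-dependent kinases. Of 10 tested miRNAs besides the family that are reported to repress either (11 listed), 1 rose at 12 h with PA, miR-152-3p (0.74, edgeR adjusted p = 0.0422), where 6.3% of all entries rose. At 24 h 4 of the 10 fell, where 2.35% of all entries fell. These were miR-17-5p (-0.80), miR-20a-5p (-0.84), miR-93-5p (-0.68) and miR-106a-5p (-0.97), which are known for repressing CDKN1A. Their relative miR-106b-5p, which has the same seed, did not pass at 12 h (0.51, adjusted p = 0.0802) or at 24 h (-0.23, adjusted p = 0.515). At 12 h the list's median was 0.26, beside -0.06 for all 810 entries, and at 24 h it was -0.20, beside -0.01. In DMSO 12 h against the other DMSO times miR-106b-5p (-0.72) and miR-17-5p (-0.48) were lower, 2 of 10, where 7.65% of all entries were lower. Over the 14 fits that each left out 1 library, the single rise at 12 h was 0 in 9 and at most 2 (without DMSO 12 h A). The 4 falls at 24 h were 0 without either DMSO 24 h library or PA 24 h B and 2 without either DMSO 3 h library. The 2 that were lower in DMSO 12 h were 0 without DMSO 12 h B and ranged up to 2 in the other fits. miR-17-5p and miR-106a-5p differ little in sequence, so reads may be split between them.

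Of 11 other miRNAs reported to be induced by NF-kB or AP-1, all tested, 4 rose and 2 fell with PA at 12 h, where 6.3% of all entries rose and 4.81% fell. The list's median was 0.14, beside -0.06 for all entries. The rises were those of miR-23a-3p (0.87), miR-27a-3p (0.94), the hypoxia-induced miR-210-3p (1.36) and miR-9-5p (0.67). The falls were those of miR-146a-5p (-0.62) and miR-146b-5p (-1.40), which restrain NF-kB signalling. Both miR-146 forms were higher in DMSO 12 h than at the other DMSO times, by 0.79 and 1.39. Lower there were miR-23a-3p (-0.66), miR-27a-3p (-0.75) and miR-210-3p (-0.91). These were 2 higher and 3 lower of the 11, where 8.89% of all entries were higher and 7.65% lower. The list's median in that comparison was -0.33, beside 0.03 for all entries. At 24 h 1 of 11 rose, miR-27a-3p (0.55), where 4.32% of all entries rose, and the median was 0.13, beside -0.01. That count was 0 in 6 of the 14 fits that each left out 1 library (either DMSO 0 h or DMSO 24 h library, DMSO 3 h B or PA 24 h A). Against the other DMSO times, 0 of the 11 passed in PA 12 h by edgeR, with 3 at an unadjusted p under 0.05, where 0.617% of all 810 entries passed and 110 had such a p. At 12 h 3 rose and 2 fell when DMSO 12 h B was left out, and 3 rose and 1 fell when either PA 12 h library was.

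Of 36 tested miRNAs from other loci of the X chromosome (42 listed), 9 rose with PA at 12 h and 0 fell. Their median was 0.29, beside -0.06 for all entries, of which 6.3% rose and 4.81% fell. The 9 rises were 8 and 6 when DMSO 12 h A or B was left out, 2 and 3 when PA 12 h A or B was, and 6 to 11 in the other fits that each left out 1 library. miR-188-3p (1.56), miR-362-3p (1.54), miR-362-5p (0.72), miR-500a-5p (0.84), miR-500a-3p (0.73), miR-532-3p (0.96) and miR-660-5p (0.81) come from the CLCN5 gene, and miR-374a-5p (0.84) and miR-424-5p (0.88) from other loci. At 24 h 1 fell, miR-106a-5p, which is also on the CDKN1B and CDKN1A list, and the median was 0.01, where 2.35% of all entries fell. That count was 0 in 5 of the 14 fits (without either DMSO 3 h or DMSO 24 h library, or PA 24 h B). Of all entries 7.65% were lower and 8.89% higher in DMSO 12 h against the other DMSO times, with a median of 0.03. Of the 36, 7 were lower and 2 higher there (median -0.31). The higher were miR-361-5p and the let-7 relative miR-98-5p (0.42). The lower were miR-188-3p (-1.03), miR-362-3p (-1.56), miR-374b-5p (-0.69), miR-424-5p (-0.93), miR-500a-5p (-0.76), miR-532-3p (-0.81) and miR-660-5p (-0.77). In PA 12 h against the other DMSO times 0 of the 36 passed by edgeR, again where 0.617% of all entries did, with 8 at an unadjusted p under 0.05. At 3 h 0 members of any of these lists passed by edgeR, and 0 had an unadjusted p under 0.05. Of all 810 entries 0.247% passed at 3 h and 14 had such a p. miR-221-3p, from the same chromosome, was higher in DMSO 12 h and lower with PA at 12 h, the opposite of the 9 and the 7 entries. Both comparisons use the DMSO 12 h libraries, so a high or low value there moves them in opposite directions.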

How the data were processed

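Small RNA was sequenced from 14 PANC-1 libraries. The authors deposited whole-number read counts per mature entry, and TPM values equal to each count over a library total that differed from the column sum by at most 0.006%. The submitters' processing notes name bcl2fastq, Bowtie, edgeR and GRCh38. The versions, the annotation release, strand use and the treatment of multiply mapped reads are not given in the sources used here. Each of the 28 columns matched a library title. Counts were fitted by group over all 14 libraries (R 4.3.3, edgeR 4.0.16 quasi-likelihood F test, robust, TMM, filterByExpr with min.count 10 and min.total.count 15), and the mean PA effect with time as a factor on the 12 libraries of 3, 12 and 24 h. Adjusted p values are Benjamini-Hochberg over all entries tested, with a threshold of 0.05. The SE is the one implied by the F value. limma 3.58.1 and DESeq2 1.42.0 served as alternatives. The scripts were tested on simulated data. The named entries were the 4 members, the 3 highest and 1 lowest in r, abundance neighbours, and members of the lists that passed at 12 or 24 h or in DMSO 12 h against the other DMSO times. Members, lists and the comparisons with DMSO at 0, 3 and 24 h were chosen with earlier results of these data known. Among those results was that DMSO 12 h stood apart. No list was tested as a set. 1 further list fixed with them is not reported here. Mature and hairpin sequences are from RefSeq (GRCh38.p14).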

Additional observations from a re-analysis of the deposited data

How the results depend on the processing

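The 40 results were recomputed under other settings, 16 in all, and with each of 14 libraries left out, but not each result under each. Results for a member had 11 to 14 other settings and those for a ratio 2. The ratios and the mean PA effect had 12 fits that left out a library. Of the 1015 values, 942 kept direction and call, 42 lost the call, 10 gained it and 21 changed sign, and 20 results changed neither in any setting. Most results did not pass in the main fit and so had no call to lose. Of those that passed, miR-221-3p at 12 h kept its call in 8 of 13 other settings. The call of miR-221-5p at 24 h was kept in 7 of 14, and that of miR-221-3p in DMSO 12 h in 11 of 13. Both PA calls were lost in most fits that left out 1 library. The cause of each change was not tested.

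At 12 h miR-221-3p was lower with PA in every setting run, but the call was lost (log2, edgeR adjusted p unless another tool is named) with the 5 most abundant entries left out (-0.83, 0.0582), limma-voom (-0.73, 0.105), limma on log2(TPM + 1) (-0.80, 0.0609) and only the compared libraries (-0.81, 0.201). The rise of miR-221-5p at 24 h lost its call with library totals (0.44, 0.122), upper quartile scaling (0.47, 0.194), no count filter (0.60, 0.15), limma on log2(TPM + 1) (0.44, 0.13), robust estimation off (0.63, 0.0529) and only the compared libraries (0.65, 0.0759). With both DMSO 12 h libraries left out, a setting chosen after seeing the data, it passed (0.63, 0.0263). DMSO 12 h against the other DMSO times lost its miR-221-3p call with limma-voom (0.59, 0.0895) and only the compared libraries (0.73, 0.064), and gained one for miR-222-5p with RLE size factors (1.22, 0.0485). DMSO over time gained miR-221-3p with no filter (F = 9.70, 0.000153), and PA 12 h against the other DMSO times gained miR-222-3p with only the compared libraries (-0.66, 0.0472). Signs turned near 0 for miR-221-3p at 24 h, with RLE (0.0078), DESeq2 (0.0078) and named human miRNAs only (0.0019), and for miR-221-5p in PA 12 h against the other DMSO times, with upper quartile scaling (-0.0047) and a mean of at least 50 counts (-3.84e-05).

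Leave-one-out values at 3 h ran from -0.18 to 0.015 for miR-221-3p, -0.087 to 0.20 for miR-221-5p and -0.29 to 0.00081 for miR-222-3p. At 12 h they ran from -1.26 to -0.22 for miR-221-3p, -0.95 to -0.17 for miR-222-3p and -1.22 to 0.068 for miR-222-5p. At 24 h they ran from -0.24 to 0.22 for miR-221-3p, 0.41 to 0.75 for miR-221-5p and -0.59 to 0.22 for miR-222-5p. F ran from 0.30 to 15.4 (difference between times) and 3.32 to 20.3 (DMSO over time) for miR-221-3p, and from 1.69 to 6.37 (DMSO over time) for miR-222-5p. DMSO 12 h against the other DMSO times ran from 0.077 to 1.12 for miR-221-3p and 0.42 to 1.71 for miR-222-5p. PA 12 h against them ran from -0.32 to 0.054 for miR-221-3p, -0.017 to 0.11 for miR-221-5p and -1.08 to -0.30 for miR-222-3p. PA 24 h against PA 3 h ran from -0.094 to 0.29 for miR-221-5p, the mean PA effect from -0.32 to 0.068 for miR-222-5p, and the log2 ratio of miR-221-3p to miR-222-3p from -0.075 to 0.17.

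With the letters A and B as a replicate block the 12 h value of miR-221-3p was -0.80 (edgeR adjusted p = 0.0655) and the 24 h value of miR-221-5p 0.63 (0.0537), and the block changed no other call. The letters were not taken as pairs: over 21 pairs of groups the differences A minus B correlated from -0.17 to 0.11, with 1 over 0.1.

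DESeq2 was not run for the F tests, and the filter on a mean of 50 counts drops miR-222-5p. With 2 libraries a group no group was checked for outlying samples. miR-222-5p had 5 to 30 counts a library, the fewest of the members.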
